A study of Homo sapiens with 6 samples.

Results

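The genes described here are 55 genes that act in or at the endoplasmic reticulum (ER), where secreted and membrane proteins are made, folded, glycosylated and sorted, together with the sensors that answer an excess of unfolded protein there. They were chosen by function and matched by gene symbol, and fall into 12 ER chaperones and co-chaperones, 8 disulfide and redox enzymes, 9 genes of ER-associated degradation, 4 stress sensors, 9 genes of the translocon and the associated TRAP complex, 4 of signal peptidase, 6 of oligosaccharyltransferase and 3 of the COPII coat. All 55 were found in a single row each among 57861 genes with a usable value in every library. All 55 also passed the minimum of 1 FPKM (fragments scaled to transcript length and library size) in at least 3 libraries, as did 15803 genes in all.

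The study sequenced RNA from MOLP-8, an established human multiple myeloma line, that is, a cancer line of antibody-secreting plasma cells. LIN28B KO cells carried the lentiviral vector lentiCRISPRv2, which delivers Cas9 and a guide RNA, with a guide against LIN28B. Control cells carried the same vector with a scrambled guide, and both were kept in RPMI medium under puromycin, so that every library comes from transduced, drug-resistant cells. There were 3 libraries of LIN28B KO cells and 3 of control cells. The labels do not say whether the KO cells were a pool or a clone, how long after transduction RNA was taken, or whether the replicate libraries are separate cultures; p-values therefore refer to the spread of these libraries alone, and that spread could be purely technical. The titles of the KO libraries carry the letters KD, while their condition label says KO.

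Plasma cells make antibody at a very high rate and depend on a large ER for it. New chains enter the ER through the SEC61 translocon, lose their signal peptide to signal peptidase, receive N-linked sugars from oligosaccharyltransferase, and fold with the help of chaperones such as BiP (HSPA5) and of disulfide isomerases; chains that fail are sent back to the cytosol for degradation, and finished ones leave in COPII vesicles. When unfolded protein builds up, the membrane sensors IRE1 (ERN1), PERK (EIF2AK3) and ATF6 start the unfolded protein response, in which the transcription factors XBP1, ATF4 and cleaved ATF6 raise the genes of this machinery. LIN28B binds the precursors of let-7 microRNAs and keeps them from maturing, and mature let-7 represses mRNAs with matching sites.

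The ER stress response element, ERSE, is the DNA site by which ATF6 and XBP1 act on many of these genes, and it is shown, with the related ERSE-II, because members with high and with low fold changes below carry one or the other. RefSeq promoters of the GRCh38.p14 assembly, 250 bases before to 50 after each gene's start, were at hand for 48 of the 55 members and were searched on both strands. ERSE was searched as CCAAT and CCACG with 9 bases of any kind between them. It was found in 6 members (12.5%: HSPA5, HSP90B1, CALR, CANX, CRELD2 and ERO1LB), against 19 of 15843 protein-coding promoters (0.12%). The related ERSE-II, ATTGG and CCACG with 1 base between them, was found in 3 members (6.25%: HYOU1, SDF2L1 and HERPUD1), against 12 of all promoters (0.0757%). The site is known to act on many of these genes, which were chosen by function, so the difference in shares is no independent finding. A match describes the letters and does not show a bound site. Matches of either motif also contain the short CCACG, which 32 members (66.7%) and 44.0% of all promoters hold. In the windows printed here, read on the strand given, capitals mark the fixed bases of ERSE or the whole of ERSE-II.
CANX at chr5:179698770-179698804 (+), ERSE: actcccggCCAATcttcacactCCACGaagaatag
HSPA5 at chr9:125241383-125241417 (-), ERSE: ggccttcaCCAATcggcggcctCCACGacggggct
HSP90B1 at chr12:103930208-103930242 (+), ERSE: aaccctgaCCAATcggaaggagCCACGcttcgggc
CALR at chr19:12938376-12938410 (-), ERSE: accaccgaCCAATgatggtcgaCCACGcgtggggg
HERPUD1 at chr16:56932017-56932043 (+), ERSE-II: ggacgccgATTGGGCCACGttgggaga
HYOU1 at chr11:119057372-119057398 (+), ERSE-II: ggcctgggATTGGACCACGtcacgggg
HYOU1 at chr11:119057266-119057292 (+), ERSE-II: gcgtactcATTGGACCACGtcccaggc
SDF2L1 at chr22:21642106-21642132 (-), ERSE-II: gggttttgATTGGTCCACGcttccgag

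The HYOU1 promoter held ERSE-II at 2 places, and that of HSP90B1 held ERSE at 2, with the one farther from the start shown. The first match in HYOU1 also runs into the core of another XBP1 and ATF6 site, TGACGTGG, read on the other strand; that core was found in 2 members (4.17%: HYOU1 and SEC62) and in 132 promoters overall (0.833%). The letters TGATGNAAT, searched for as an ATF4 site, were found in 0 of the 48 member promoters and in 99 of all promoters (0.625%). The whole promoters of CANX and SDF2L1 follow, because CANX lay near the top and SDF2L1 at the bottom of the members' fold changes; each is read in the direction of its gene, and capitals mark the same bases, which in SDF2L1 lie on the other strand.
CANX promoter at chr5:179698679-179698978 (+): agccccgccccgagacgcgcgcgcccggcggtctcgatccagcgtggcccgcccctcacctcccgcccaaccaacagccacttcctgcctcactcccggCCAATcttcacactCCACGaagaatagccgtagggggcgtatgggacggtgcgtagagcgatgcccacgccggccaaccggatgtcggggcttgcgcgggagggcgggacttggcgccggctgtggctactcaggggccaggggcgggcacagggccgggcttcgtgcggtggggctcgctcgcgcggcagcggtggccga
SDF2L1 promoter at chr22:21642052-21642351 (+): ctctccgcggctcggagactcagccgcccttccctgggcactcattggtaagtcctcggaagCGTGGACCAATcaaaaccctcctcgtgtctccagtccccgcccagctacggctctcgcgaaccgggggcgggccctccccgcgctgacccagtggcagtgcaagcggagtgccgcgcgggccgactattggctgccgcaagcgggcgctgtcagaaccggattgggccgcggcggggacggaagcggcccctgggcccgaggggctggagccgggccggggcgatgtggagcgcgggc

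The cells carried the marks of their labelled type. All 10 plasma cell markers were above 1 FPKM on average, among them the antibody joining chain IGJ at 11716 FPKM, XBP1 at 960 FPKM, CD38 at 397 FPKM and SDC1 at 285 FPKM, while the B cell gene MS4A1 and the T and NK cell genes CD3D and NKG7 were listed at 0 in every library. The plasma cell list summed to between 11000 and 16800 FPKM in LIN28B KO libraries and between 14000 and 15600 FPKM in controls; of the other lists, 1 of 5 B cell, 0 of 6 T and NK cell, 0 of 5 myeloid, 2 of 4 epithelial and 2 of 4 fibroblast and endothelial markers reached 1 FPKM. LIN28B mRNA had 8.41, 8.17 and 5.84 FPKM in LIN28B KO libraries, against 23.3, 24.3 and 25.5 FPKM in controls, a log2 fold change of -1.66 ± 0.17 (SE; limma adjusted p = 0.0207), and an edited gene can keep its mRNA. Leaving out any 1 library gave adjusted p-values for LIN28B of 0.00957 to 0.185.

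LIN28B KO library 3 stood apart, and most of the values below rest on how it is treated. Among 1138 genes with a control mean of at least 100 FPKM, a class that holds 36 of the 55 members, LIN28B KO libraries 1 to 3 had median log2 ratios of -0.11, -0.10 and -0.63 to the mean of the controls. In the same libraries 15932, 15922 and 17676 genes reached 1 FPKM, against 15356 to 15430 in controls. The nuclear RNA MALAT1 stood at 314, 331 and 892 FPKM in LIN28B KO libraries, against 259 to 286 FPKM in controls. Results are therefore given as deposited and after cyclic loess scaling, which takes out any trend of the ratio between libraries with the level of the gene. Scaling assumes that genes of a given level do not change on balance; after it, the median ratio of those abundant genes was -0.02, -0.02 and -0.03. In bulk RNA, fewer cells of a type and less RNA per cell cannot be told apart, and the part of RNA quality in the values of library 3 was not tested.

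As deposited, no member of the ER and unfolded protein response machinery was called higher or lower in LIN28B KO cells, and in LIN28B KO libraries 1 and 2 most members stood at their control level. The members' FPKM summed to 17941, 17883 and 12623 in LIN28B KO libraries, against 17916, 17712 and 17041 in controls. The mean of KO libraries 1 and 2 was within 10% of the control mean for 40 of 55 members, with a median of 101% and a range from 83.0% for DERL1 to 121% for STT3B. Library 3 had a median of 74.3% of the control mean, was below the control mean for 54 of 55 members and was the lowest of all 6 libraries for 53. These counts were not made over all genes. Library 3 was low well beyond the members, with median log2 ratios of -0.63 over genes of at least 100 FPKM and -0.46 over genes of 10 to 100 FPKM.

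In the limma test over all 6 libraries, 0 of 55 members passed an adjusted p of 0.05, against 15 of 15803 genes (0.0949%; 0.0633% higher and 0.0316% lower), and 1 member, DERL1, had an unadjusted p under 0.05 as a lower gene (background 8.73%; 0 members were higher, background 4.95%). The members' median log2 fold change was -0.14, beside -0.13 over all tested genes, with 8 values above and 47 below 0. After cyclic loess scaling the median was 0.13, beside 0.00 over all genes, with 46 values above and 9 below 0, and 1 member, STT3B, passed the test as higher (1.82%, against 0.702% of all genes in both directions, 0.361% higher and 0.342% lower). At an unadjusted p under 0.05, 24 members were higher (background 9.28%) and 2 lower (background 8.83%). The sign of the members' median thus changed with the scaling. The all-gene median and the background shares, here and below, are not matched for level. Of the 55 members, 36 are in the class of at least 100 FPKM. In LIN28B KO libraries 1 to 3 the members' median log2 ratios as deposited were 0.02, 0.02 and -0.43. That class had -0.11, -0.10 and -0.63. After scaling the members had 0.10, 0.11 and 0.17 and the class -0.02, -0.02 and -0.03. The other members had lower control means, down to 20.9 FPKM for EDEM2. The 7152 genes with control means of 10 to 100 FPKM had -0.05, -0.05 and -0.46 as deposited. After scaling they had 0.00, -0.01 and -0.01. The members' medians were thus above those of both classes both ways. For library 3 as deposited, the members' -0.43 was close to the -0.46 of the lower class. The size of any change was bounded more tightly: after scaling, the 95% confidence interval of the fold change lay within 1.5-fold in either direction for 54 of 55 members, the exception being DERL3, and as deposited within 2-fold for all 55 and within 1.5-fold for 38.

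**Figure D1:**
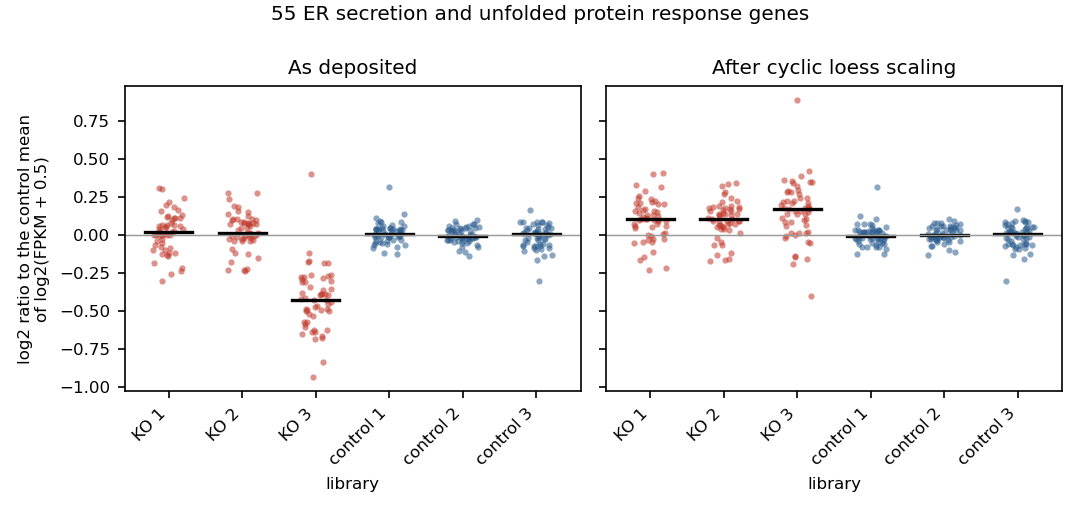
Each point is 1 of the 55 members in 1 library, as the log2 ratio of its FPKM + 0.5 to the control mean, as deposited (left) and after cyclic loess scaling (right); black lines are medians. As deposited the medians of LIN28B KO libraries 1 to 3 were 0.02, 0.02 and -0.43, and after scaling they were 0.10, 0.11 and 0.17, with the controls close to 0.

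The same shift was seen in the genes whose groups did not overlap. As deposited, all 3 KO values lay below all 3 control values for 7 members (HYOU1, SDF2L1, MZB1, PDIA4, ERO1L, DERL1 and EIF2AK3; background 20.1%) and above them for 0 (background 7.61%). After scaling they lay above for 30 members (background 13.7%) and below for 3, SDF2L1, MZB1 and DERL1 (background 13.3%). The background is not matched for level, and 6907 of its genes had control means of 1 to 10 FPKM, below every member. The members on the higher side after scaling were 5 of 6 oligosaccharyltransferase genes, 7 of 9 translocon and TRAP genes, 3 of 4 signal peptidase genes, 3 of 4 stress sensors, 4 of 8 disulfide and redox enzymes, 5 of 12 chaperones, 3 of 9 genes of ER-associated degradation and 0 of 3 COPII genes.

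The stress sensors were expressed at low to moderate levels, with control means from 30.6 FPKM for ATF6 to 61.1 FPKM for ATF6B, and none passed the test under either scaling. ERN1, the kinase and nuclease IRE1 that splices XBP1 mRNA, had 53.9, 54.1 and 47.2 FPKM in LIN28B KO libraries, against 50.8, 49.5 and 53.9 FPKM in controls. The groups overlapped as deposited and did not after scaling, with a log2 fold change of 0.01 ± 0.12 as deposited and 0.22 ± 0.09 after scaling (SE; limma adjusted p = 0.983 and 0.267). EIF2AK3, the kinase PERK that slows translation, had 30.3, 32.5 and 31.0 FPKM in LIN28B KO libraries, against 34.0, 35.3 and 36.7 FPKM in controls. All KO values were below all controls as deposited, and library 3 was not the lowest of them; the log2 fold change was -0.17 ± 0.11 as deposited and 0.02 ± 0.12 after scaling (adjusted p = 0.48 and 0.951). ATF6, the membrane-bound transcription factor freed by cleavage, had 31.5, 33.3 and 24.9 FPKM in LIN28B KO libraries, against 31.4, 31.7 and 28.6 FPKM in controls, and the groups overlapped as deposited but not after scaling (log2 fold change -0.04 ± 0.15 as deposited and 0.15 ± 0.07 after scaling; adjusted p = 0.901 and 0.333).

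The chaperones included some of the most abundant mRNAs of the list, with control means from 45.2 FPKM for CRELD2 to 1590 FPKM for HSP90B1, and 0 of 12 passed the test under either scaling. HSPA5, the ER Hsp70 BiP and the classic readout of ER stress, lies at chr9:127997132-128003609 of GRCh37 (ENSG00000044574). It had 362, 371 and 261 FPKM in LIN28B KO libraries, against 361, 361 and 365 FPKM in controls. KO libraries 1 and 2 were at the control level and library 3 was below it; the log2 fold change was -0.15 ± 0.17 as deposited and 0.13 ± 0.04 after scaling (SE; limma adjusted p = 0.679 and 0.165). HSP90B1, the ER Hsp90 also known as GRP94, had 1463, 1578 and 1027 FPKM in LIN28B KO libraries, against 1687, 1640 and 1444 FPKM in controls, and overlapped with them (log2 fold change -0.25 as deposited, 0.05 after scaling). CALR, the calcium-binding lectin calreticulin that holds sugar-bearing chains, had 1013, 1024 and 706 FPKM in LIN28B KO libraries, against 1078, 1097 and 980 FPKM in controls, and also overlapped (-0.22 and 0.07). DNAJB9, a BiP co-chaperone strongly raised by IRE1 and XBP1, had 86.2, 87.6 and 65.0 FPKM in LIN28B KO libraries, against 77.0, 71.6 and 88.3 FPKM in controls (0.01 and 0.23). Of these 4 genes, HSPA5 and DNAJB9 had groups that did not overlap after scaling, and 0 of the 4 passed the test.

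The chaperones also held members at opposite ends of the list. CANX, the membrane lectin calnexin and partner of calreticulin, had 735, 699 and 510 FPKM in LIN28B KO libraries, against 673, 623 and 599 FPKM in controls. KO libraries 1 and 2 were above every control and library 3 below; the log2 fold change was 0.02 ± 0.18 as deposited and 0.31 ± 0.05 after scaling (SE; limma adjusted p = 0.961 and 0.0671). SDF2L1, a stress-induced partner of BiP co-chaperones at chr22:21996550-21998587 of GRCh37 (ENSG00000128228), had 77.6, 74.9 and 45.9 FPKM in LIN28B KO libraries, against 85.7, 89.8 and 89.4 FPKM in controls. Every KO value was below every control, also after scaling, with a log2 fold change of -0.45 ± 0.21 as deposited and -0.23 ± 0.08 after scaling (adjusted p = 0.383 and 0.24). MZB1, a plasma cell co-chaperone that helps assemble IgM, had 565, 528 and 346 FPKM in LIN28B KO libraries, against 624, 611 and 622 FPKM in controls. It too was below every control under both scalings (-0.40 ± 0.21 and -0.12 ± 0.05; adjusted p = 0.411 and 0.291). HYOU1, the Hsp110-like exchange factor of BiP, had 187, 201 and 140 FPKM in LIN28B KO libraries, against 224, 227 and 209 FPKM in controls, and overlapped with them only after scaling (-0.34 ± 0.17 and -0.08 ± 0.05; adjusted p = 0.398 and 0.448).

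Of the 8 disulfide and redox enzymes none passed the test under either scaling of the 6 libraries. P4HB, the main protein disulfide isomerase and the most abundant of all 55 members, had 3388, 3329 and 2422 FPKM in LIN28B KO libraries, against 3299, 3276 and 2950 FPKM in controls (log2 fold change -0.07 ± 0.20 as deposited and 0.24 ± 0.06 after scaling; SE; limma adjusted p = 0.863 and 0.127). PDIA3, the isomerase that works with calnexin and calreticulin, had 512, 513 and 319 FPKM in LIN28B KO libraries, against 465, 435 and 450 FPKM in controls. KO libraries 1 and 2 were above every control and library 3 below every control; the log2 fold change was -0.04 ± 0.21 as deposited and 0.24 ± 0.05 after scaling (adjusted p = 0.934 and 0.11). PDIA4, a further isomerase induced by ER stress, had 272, 266 and 190 FPKM in LIN28B KO libraries, against 294, 292 and 302 FPKM in controls, so that its groups did not overlap as deposited (-0.30 ± 0.17; after scaling -0.04 ± 0.04; adjusted p = 0.433 and 0.64). ERO1L, the oxidase that recharges the isomerases, had 60.1, 55.3 and 52.1 FPKM in LIN28B KO libraries, against 61.2, 69.2 and 63.4 FPKM in controls (-0.21 ± 0.13 and 0.01 ± 0.11; adjusted p = 0.452 and 0.979). The other 4 enzymes had log2 fold changes between -0.21 and -0.03 as deposited and between -0.03 and 0.15 after scaling.

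The entry machinery was abundant and even. The 9 translocon and TRAP genes had control means from 119 FPKM for SEC62 to 760 FPKM for SSR2, all were below 0 as deposited (median log2 fold change -0.12), none was below 0 after scaling (median 0.15), and 0 of 9 passed the test. SEC61A1, the channel subunit itself, had 243, 237 and 169 FPKM in LIN28B KO libraries, against 231, 217 and 228 FPKM in controls (0.18 ± 0.04 after scaling; SE; limma adjusted p = 0.113). SEC61B, the small subunit beside it, had 306, 319 and 206 FPKM in LIN28B KO libraries, against 326, 310 and 348 FPKM in controls (0.00 ± 0.06 after scaling; adjusted p = 0.988). SSR3, a TRAP subunit, had 427, 441 and 325 FPKM in LIN28B KO libraries, against 394, 404 and 436 FPKM in controls (0.21 ± 0.06 after scaling; adjusted p = 0.163). In each of these 3 genes LIN28B KO library 3 was the lowest of the 6.

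The 4 signal peptidase genes had control means in a narrow range from 231 to 277 FPKM and a median log2 fold change of -0.08 as deposited and 0.18 after scaling, with 0 of 4 past the test. SPCS1, an accessory subunit, had 258, 263 and 176 FPKM in LIN28B KO libraries, against 242, 228 and 224 FPKM in controls, with KO libraries 1 and 2 above every control (log2 fold change -0.02 ± 0.18 as deposited and 0.25 ± 0.04 after scaling; SE; limma adjusted p = 0.972 and 0.0743). SPCS3, another subunit, had 255, 262 and 178 FPKM in LIN28B KO libraries, against 245, 245 and 242 FPKM in controls (0.17 ± 0.04 after scaling; adjusted p = 0.106). SPCS2 varied more among the KO libraries, with 342, 294 and 182 FPKM, against 284, 273 and 273 FPKM in controls.

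Among the 6 oligosaccharyltransferase genes was STT3B, the 1 member called over 6 libraries, and it was called only after scaling. STT3B is a catalytic subunit of the sugar-transferring complex, used mainly for sites that the co-translational form with STT3A skips. It lies at chr3:31574130-31679112 of GRCh37 (ENSG00000163527). It had 308, 293 and 207 FPKM in LIN28B KO libraries, against 264, 246 and 237 FPKM in controls. KO libraries 1 and 2 were above every control and library 3 below every control as deposited; after scaling all 3 KO libraries were above, at log2 ratios of 0.40, 0.32 and 0.35, against 0.07, -0.01 and -0.06 in controls. The log2 fold change was 0.09 ± 0.18 as deposited (limma adjusted p = 0.81) and 0.36 ± 0.05 after scaling (adjusted p = 0.0462), a 1.28-fold higher level. With the same scaling and any 1 library left out, the value stayed between 0.33 and 0.39. The adjusted p was then between 0.0778 and 0.215, so that over all genes no such fit called it. On protein-coding genes alone, scaled and without LIN28B KO library 3, STT3B was called (limma adjusted p = 0.0351). STT3A, the other catalytic subunit, had 517, 495 and 373 FPKM in LIN28B KO libraries, against 486, 505 and 518 FPKM in controls (0.14 ± 0.05 after scaling; adjusted p = 0.241). The remaining 4 subunits lay between 0.08 for DDOST and 0.13 for OSTC after scaling.

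ER-associated degradation had the widest range of fold changes, from -0.18 for DERL1 to 0.44 for DERL3 after scaling, and 0 of 9 genes passed the test under either scaling. DERL1 and DERL3 are related membrane proteins of the retrotranslocation machinery. DERL1 (ENSG00000136986) had 77.5, 81.6 and 59.6 FPKM in LIN28B KO libraries, against 101, 95 and 91.3 FPKM in controls. Every KO value was below every control under both scalings, with a log2 fold change of -0.40 ± 0.16 as deposited and -0.18 ± 0.06 after scaling (SE; limma adjusted p = 0.351 and 0.205). DERL3 had 36.6, 42.8 and 46.7 FPKM in LIN28B KO libraries, against 44.1, 34.9 and 28.5 FPKM in controls; it was the only member with its highest value in KO library 3, and its controls spread the most of all members, with a coefficient of variation of 21.9% against a median of 4.35%. Its deposited bounds were also the widest, with the upper one reaching 45.1% above the value. SYVN1, the ubiquitin ligase HRD1 at the centre of this pathway, had 261, 259 and 174 FPKM in LIN28B KO libraries, against 239, 239 and 243 FPKM in controls (-0.08 ± 0.18 and 0.18 ± 0.04; adjusted p = 0.84 and 0.108). HERPUD1, a stress-induced partner of SYVN1, had 171, 192 and 141 FPKM in LIN28B KO libraries, against 178, 161 and 185 FPKM in controls, and the groups overlapped (-0.07 and 0.19; adjusted p = 0.847 and 0.288). EDEM1 and EDEM2, which trim mannose to mark chains for degradation, were near control after scaling. EDEM1 had 52.2, 45.6 and 36.7 FPKM in LIN28B KO libraries, against 47.5, 53.1 and 54.8 FPKM in controls, and EDEM2 had 19.7, 20.5 and 13.8 FPKM in LIN28B KO libraries, against 21.3, 20.5 and 21.0 FPKM in controls (-0.01 and -0.06 after scaling).

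The 3 COPII coat genes, SEC23B, SEC24D and SEC31A, which shape the vesicles that leave the ER, had control means from 69.4 to 182 FPKM. They had a median log2 fold change of -0.18 as deposited and 0.04 after scaling, and 0 of 3 passed the test. The latter was the lowest median of any role among the members, but rests on 3 genes. In the list of further secretory genes described below, 19 COPII and cargo receptor genes had medians of -0.08 and 0.14. After scaling 17 of these 19 were above 0 and 2 below. The groups overlapped for all 3 members under both scalings.

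**Figure D2:**
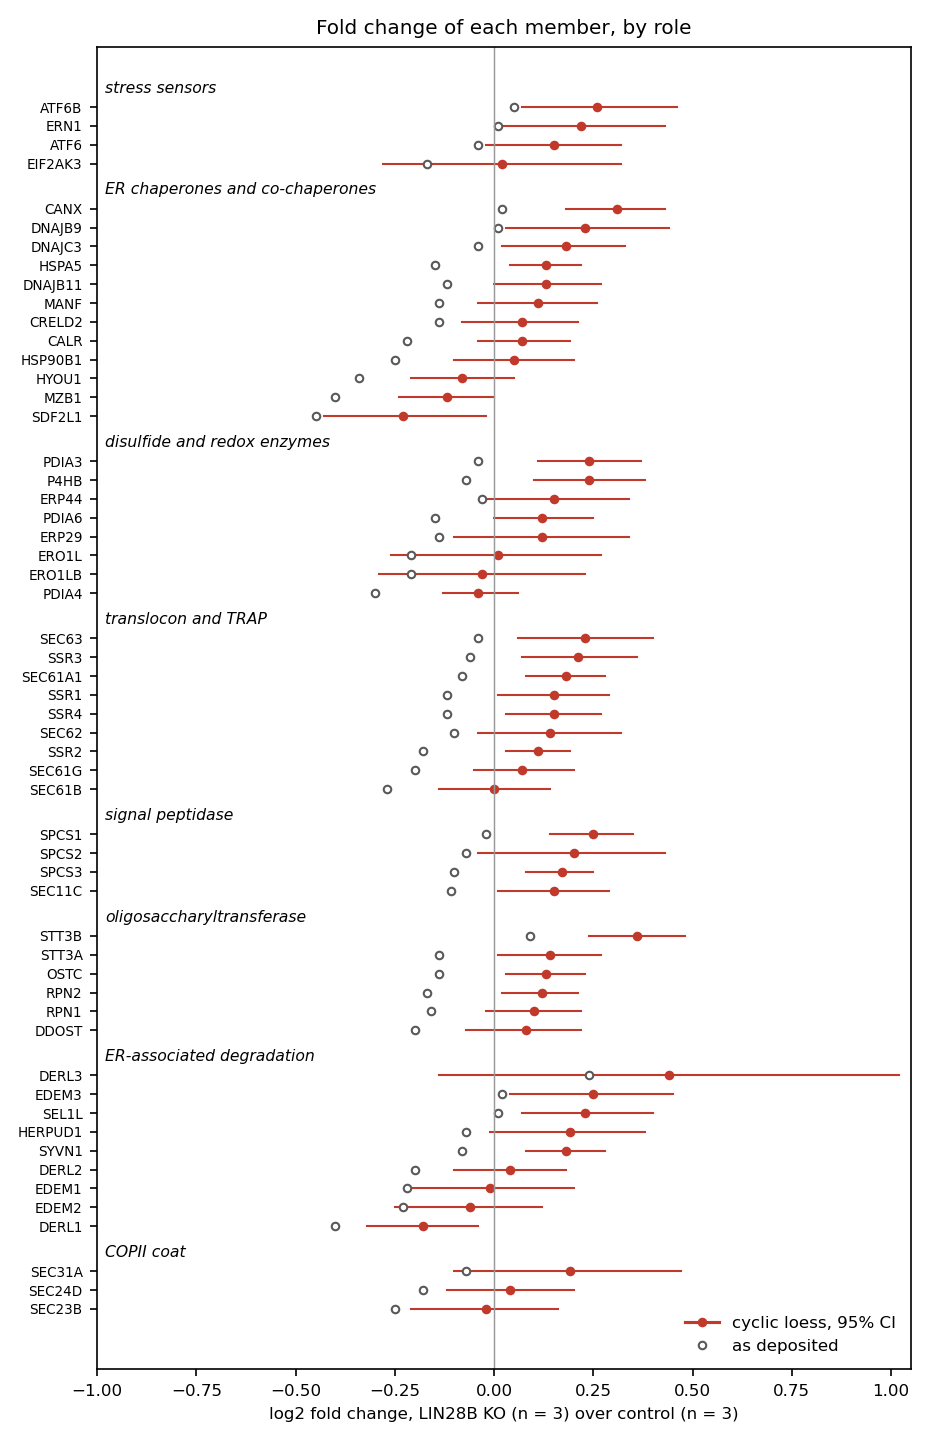
Log2 fold change of LIN28B KO (n = 3) over control (n = 3) for each of the 55 members, grouped by role; filled red points are values after cyclic loess scaling with 95% confidence intervals from limma, and open grey points are values as deposited. Scaling moved every gene to the right, DERL3 has the widest interval, STT3B and CANX lie highest among genes with narrow intervals, and SDF2L1 and DERL1 lie lowest.

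Some members kept similar places in the 3 KO libraries and others did not. Ranked among the 55 by log2 ratio to the control mean as deposited, with 1 the highest, STT3B was 1, 3 and 8 in LIN28B KO libraries 1 to 3 and CANX was 4, 7 and 15. SDF2L1 was 51, 55 and 55, MZB1 49, 53 and 54, DERL1 55, 54 and 52, HYOU1 53, 49 and 50, and PDIA4 48, 50 and 48. These ranks share 1 set of control libraries and serve as a description, with no test. Others changed place: DERL3, with the highest fitted value under both scalings, was 23, 1 and 1, ERO1LB was 54, 24 and 28, EIF2AK3 was 52, 48 and 6, and PDIA3 was 6, 4 and 37.

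**Figure D3:**
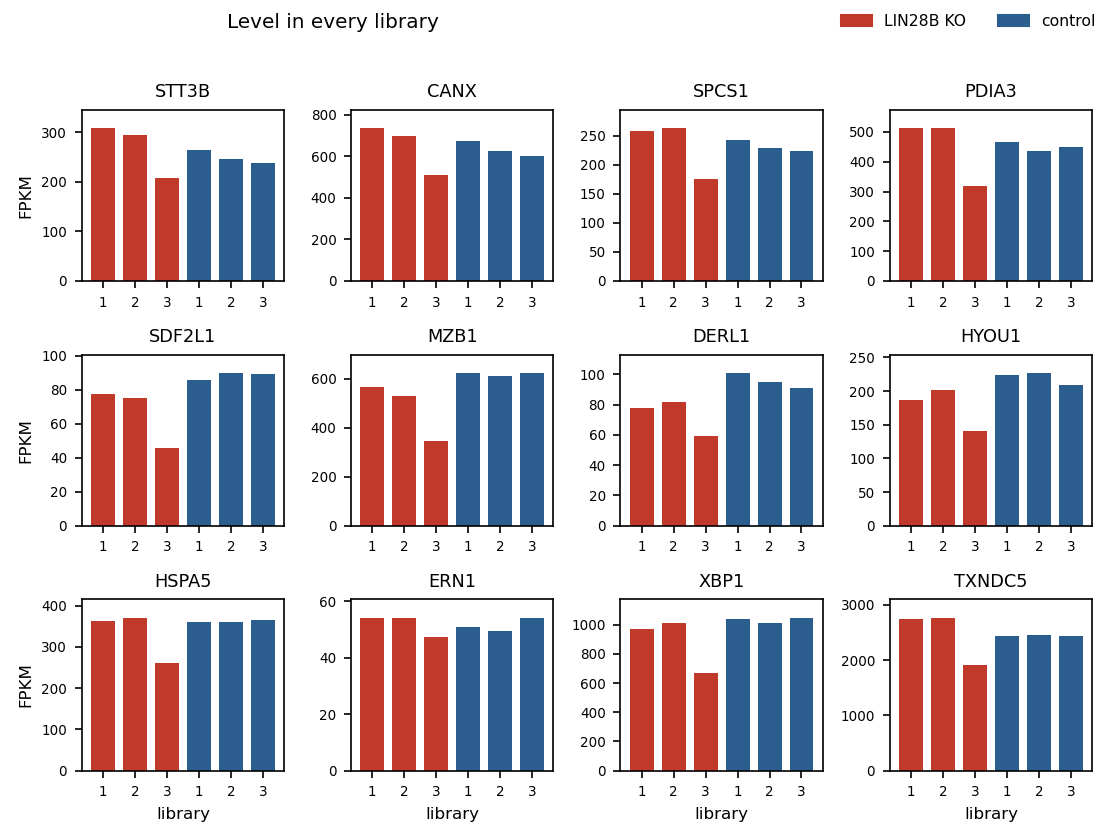
FPKM as deposited in each LIN28B KO library (red, left) and each control library (blue, right) for 10 members and the pathway genes XBP1 and TXNDC5; bars are single libraries and start at 0. In all 12 genes LIN28B KO library 3 is the lowest of the 6. SDF2L1, MZB1, DERL1, HYOU1 and, by a small margin, XBP1 are below every control in libraries 1 and 2 as well.

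A comparison without LIN28B KO library 3, on 11308 protein-coding genes, gives the values with that library set aside. As deposited, 0 of 55 members passed, against 463 genes (4.09%; 1.08% higher and 3.02% lower). Their median log2 fold change was 0.02, beside -0.04 over all genes, with 34 values above and 21 below 0. At an unadjusted p under 0.05, 7 members were higher (background 7.43%) and 5 lower (background 15.4%). With cyclic loess scaling the median was 0.12, beside 0.00, and 4 members passed as higher (7.27%, against 2.25% of all genes, 1.08% higher and 1.17% lower): PDIA3 at 0.30 ± 0.04, STT3B at 0.37 ± 0.06, CANX at 0.30 ± 0.05 and SPCS1 at 0.27 ± 0.05 (SE; limma adjusted p = 0.0282, 0.0351, 0.048 and 0.048). At an unadjusted p under 0.05, 19 were higher (background 10.4%) and 1 lower, DERL1 (background 10.5%). With the scaling but over all genes in place of protein-coding genes, 0 members passed without library 3, so that these calls also rested on which genes were tested.

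Other genes of the pathway were read from a list of 85 further secretory genes, of which 84 were tested; ATF3 was under the minimum. The transcription factors and feedback genes did not pass the test under any of these fits. XBP1, the factor that drives the plasma cell ER, had 974, 1011 and 669 FPKM in LIN28B KO libraries, against 1042, 1013 and 1049 FPKM in controls, a log2 fold change of -0.25 ± 0.19 as deposited and 0.04 ± 0.03 after scaling (SE; limma adjusted p = 0.539 and 0.52). A gene total of this kind does not separate spliced from unspliced XBP1. Every KO value of XBP1 was below every control as deposited, and the groups overlapped after scaling. ATF4, translated when PERK is active, had 158, 164 and 107 FPKM in LIN28B KO libraries, against 187, 174 and 177 FPKM in controls, so that every KO value was lower (-0.35 ± 0.19 and -0.10 ± 0.05; adjusted p = 0.415 and 0.346). DDIT3, the stress factor CHOP, was low, with 9.80, 8.28 and 5.91 FPKM in LIN28B KO libraries, against 6.99, 6.33 and 6.11 FPKM in controls (0.26 ± 0.20 and 0.36 ± 0.13; adjusted p = 0.532 and 0.231). TRIB3, a target of ATF4 and CHOP, had 10.3, 10.6 and 6.36 FPKM in LIN28B KO libraries, against 13.2, 11.5 and 11.7 FPKM in controls (-0.43 ± 0.21 and -0.30 ± 0.13; adjusted p = 0.394 and 0.287). PPP1R15A, the phosphatase subunit GADD34 that restores translation, had 13.8, 14.6 and 9.71 FPKM in LIN28B KO libraries, against 12.6, 12.2 and 13.4 FPKM in controls (-0.02 and 0.13). DDIT3 and TRIB3, which act in the same branch, thus had fitted values of opposite sign, neither past the test. After scaling every KO value was above every control for DDIT3 and below every control for TRIB3. As deposited the groups overlapped for DDIT3 and not for TRIB3.

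Over these 84 genes the median log2 fold change was -0.12 as deposited and 0.11 after scaling, near the members' own. As deposited 0 passed; after scaling 3 passed as higher (3.57%, against the same 0.361% of all genes) and 0 as lower. The 3 were HM13, TXNDC5 and TXNDC11, and the same 3 passed in both protein-coding fits without library 3. HM13, the signal peptide peptidase that cuts up the remains of signal peptides, had 315, 319 and 226 FPKM in LIN28B KO libraries, against 273, 271 and 266 FPKM in controls (0.34 ± 0.04 after scaling; limma adjusted p = 0.0253). TXNDC5, a thioredoxin-like isomerase that is abundant in plasma cells, had 2743, 2766 and 1911 FPKM in LIN28B KO libraries, against 2428, 2459 and 2437 FPKM in controls (0.31 ± 0.03; adjusted p = 0.0281). TXNDC11, a membrane-bound thioredoxin-like protein, had 169, 182 and 135 FPKM in LIN28B KO libraries, against 148, 144 and 139 FPKM in controls (0.41 ± 0.06; adjusted p = 0.0494). In each, KO libraries 1 and 2 were above every control as deposited and library 3 was the lowest of the 6. With scaling of all genes, HM13 and TXNDC5 still passed without library 3, and none of the 3 passed when any other library was left out.

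The promoter motifs and the fold changes were set side by side as a description. No promoter was at hand for PDIA3, DERL1, DERL3, SPCS1, RPN1, STT3B and SEC24D, so these are in neither group. The 9 members with ERSE or ERSE-II had a median log2 fold change of -0.21 as deposited and 0.07 after scaling, and the 39 members whose promoter held neither had -0.12 and 0.14. The 9 ranged after scaling from -0.23 for SDF2L1 to 0.31 for CANX, the promoters printed above. CANX and CALR, which share the fixed letters of ERSE, lay at 0.31 and 0.07 after scaling.

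Since LIN28B acts on let-7, the members' 3′ UTRs were searched for the let-7 seed match, using the longest 3′ UTR per gene in GENCODE 29. The 9 mature let-7 and miR-98 microRNAs listed by RefSeq share 1 seed at bases 2 to 8, in capitals here for 2 of them. A 7-base match was found in 11 of 55 members (20%), against 2043 of 11311 tested protein-coding genes (18.1%), and the 8-base match CTACCTCA in 3 (5.45%), against 494 (4.37%), with median UTR lengths of 1500 and 1370 bases. The 3 members with the 8-base match were EDEM3, DERL3 and ATF6B, whose sites are given with the match in capitals.
hsa-let-7a-5p: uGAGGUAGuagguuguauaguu
hsa-miR-98-5p: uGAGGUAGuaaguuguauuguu
EDEM3 3′ UTR site: tagaaacatctggtCTACCTCAgtta
DERL3 3′ UTR site: cattgccgaggttcCTACCTCAtgga
ATF6B 3′ UTR site: tcccaccagcccctCTACCTCAatca

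The 11 members with a match (HSPA5, DNAJB9, ERO1L, ERP29, ERP44, HERPUD1, EDEM3, DERL3, ATF6B, ERN1 and SPCS3) had a median log2 fold change of -0.03 as deposited and 0.19 after scaling. The 44 members without one had -0.14 and 0.12. EDEM3, another mannose-trimming enzyme, had 91.4, 85.7 and 71.9 FPKM in LIN28B KO libraries, against 84.0, 86.7 and 74.3 FPKM in controls. ATF6B, a relative of ATF6, had 72.5, 64.4 and 53.7 FPKM in LIN28B KO libraries, against 65.8, 57.8 and 59.8 FPKM in controls. Neither passed the test (limma adjusted p = 0.956 and 0.891 as deposited, 0.221 and 0.181 after scaling), and their groups overlapped as deposited and lay higher without overlap after scaling.

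The share of reads from neighbouring genes is a limit for some members. Of the 55, 15 overlap another gene that reaches at least 10% of their own level, DERL1, DERL3, SPCS1, SYVN1 and SEC61A1 among them, and 7 have a pseudogene that bears their name, PDIA3 among them. Overlap was taken between whole gene positions, introns included, and pseudogenes were matched by name alone. Shared exons and shared sequence were not checked, and the sources used here do not say whether reads were assigned by strand. How far reads of such partners enter the members' values is therefore not known.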

How the data were processed

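RNA was sequenced from 3 LIN28B KO and 3 control libraries of MOLP-8 cells, made with a NEBNext RNA kit per the labels' protocols. Per the submitters' processing notes, the tools were TopHat2, HTSeq and cutadapt and the build was GRCh37, with neither versions nor roles. The values deposited by the authors are FPKM, 1 value a gene between 2 bounds, per the file headers. The tool that wrote them, its annotation and its use of strand are not stated in the labels or headers. Library groups came from the condition label and replicate numbers from the titles.

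Rows of 1 gene were summed (108 genes) and 25 genes with a failed estimate were left out; no member was among either. Read numbers per gene are not given, so depth is not known directly. The upper bound lay 1.37% to 45.1% above a member's value, taking its widest library. Since the tool is not stated, what the bounds cover is not known here. Log2(FPKM + 0.5) was tested, KO over control and two-sided, in limma 3.58.1 under R 4.3.3, with eBayes trend on, for genes with 1 FPKM or more in 3 or more libraries. Adjustment was by Benjamini-Hochberg over all genes tested. Fold changes on this scale understate those of low genes. Cyclic loess used limma's normalizeBetweenArrays. Alternatives covered the pseudocount (0.1 and 1), the filter, quantile normalization, each library left out, protein-coding genes of GENCODE 29 alone and the replicate number as a block; cyclic loess with libraries other than KO library 3 left out was added after the data were seen. The fits over 6 libraries were tested on simulated data with log2 changes of 0.3, 0.5, 1 and 2. As deposited, 0%, 2%, 54% and 98% of these were called. With cyclic loess and a trend with level added to 1 library, 6%, 54%, 94% and 100% were called. Changes of 0.3 were thus seldom called, and a member that did not pass is not shown to be unchanged. Promoter and microRNA sequences are from RefSeq (GRCh38.p14), UTR sequences from GENCODE 29, and both are used for sequence only, since the files use GRCh37; gene positions are those of the files.

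The members, the list of 85 further genes and the tests were chosen with earlier results of these data known. Members given with every library's value are the 10 with the smallest p as deposited, the 10 with the smallest p after cyclic loess, and sensors and main chaperones named by function; of the further genes, XBP1, ATF4, DDIT3, TRIB3 and PPP1R15A and those called. SPCS2, STT3A, DERL3, EDEM3 and ATF6B were added for the description of their groups after their values were seen.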

Additional observations from a re-analysis of the deposited data

How the results depend on the processing

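Of 15803 genes, 15 were called as deposited. The count was 14 with either other pseudocount, 6 without a filter, 4 with at least 1 FPKM in every library, 111 after cyclic loess, 28 after quantile normalization, 72 after cyclic loess without LIN28B KO library 3, and 463 as deposited and 254 after cyclic loess on protein-coding genes without that library. Leaving out 1 library gave 4 (without LIN28B KO library 2) to 64 genes (without LIN28B KO library 3) as deposited, and 0 (without LIN28B KO library 2) to 14 (without control library 3) with cyclic loess and any library but LIN28B KO library 3 left out. Members called were 1 (STT3B) after cyclic loess and 4 after cyclic loess on protein-coding genes without LIN28B KO library 3, and 0 under every other alternative run. Of the further secretory genes, 3 were called after cyclic loess and in both protein-coding fits, 2 after cyclic loess without LIN28B KO library 3, and 0 under the others. The members' median log2 fold change was 0.13 after cyclic loess, 0.06 after quantile normalization, 0.11 after cyclic loess without LIN28B KO library 3, 0.02 on protein-coding genes without that library and 0.12 with cyclic loess there; leaving out 1 library gave -0.20 to 0.02 as deposited and up to 0.15 with cyclic loess. The cause of these shifts was not tested.

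The values gave no sign of pairing by replicate number. Same-numbered KO and control libraries had correlations of -0.0213, 0.0437 and -0.0327 between their deviations from the group means. Differently numbered ones had -0.0789 to 0.0859. Such correlations cannot settle whether libraries were handled in pairs. With the replicate block 13 genes were called and the members' median was -0.14; with the replicate block and cyclic loess limma called 0 genes, 2377 had an unadjusted p under 0.05, and the median was 0.13.

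Single genes whose log2 fold change changed sign had these values. With cyclic loess, with and without the replicate block: ERO1L 0.01, EIF2AK3 0.02, SEC61B 0.00, SPCS1 0.25, SPCS3 0.17, SYVN1 0.18, PDIA3 0.24, SEC61A1 0.18, P4HB 0.24, SSR3 0.21, HSPA5 0.13, ATF6 0.15, HSP90B1 0.05, CALR 0.07, HERPUD1 0.19, XBP1 0.04, PPP1R15A 0.13, TXNDC5 0.31. With quantile normalization: SPCS1 0.17, SPCS3 0.08, SYVN1 0.09, PDIA3 0.14, SEC61A1 0.11, SSR3 0.12, HSPA5 0.05, ATF6 0.11, HSP90B1 0.05, CALR 0.08, HERPUD1 0.14, XBP1 0.04, PPP1R15A 0.06, TXNDC5 0.25. With cyclic loess without LIN28B KO library 3: SEC61B 0.03, SPCS1 0.26, SPCS3 0.17, SYVN1 0.20, PDIA3 0.29, SEC61A1 0.18, P4HB 0.20, SSR3 0.18, HSPA5 0.11, ATF6 0.13, HSP90B1 0.05, CALR 0.06, HERPUD1 0.14, XBP1 0.05, PPP1R15A 0.18, TXNDC5 0.29. On protein-coding genes without that library: SPCS1 0.17, SPCS3 0.08, SYVN1 0.11, PDIA3 0.19, SEC61A1 0.09, P4HB 0.08, SSR3 0.08, HSPA5 0.02, ATF6 0.08, HERPUD1 0.06, PPP1R15A 0.16, TXNDC5 0.17. With cyclic loess as well: SEC61B 0.04, SPCS1 0.27, SPCS3 0.18, SYVN1 0.21, PDIA3 0.30, SEC61A1 0.19, P4HB 0.22, SSR3 0.18, HSPA5 0.12, ATF6 0.14, HSP90B1 0.06, CALR 0.07, HERPUD1 0.14, XBP1 0.06, PPP1R15A 0.19, TXNDC5 0.30. With 1 library left out as deposited, or after cyclic loess with any library but LIN28B KO library 3, whose values stand above: ERO1L -0.26 to 0.09, EIF2AK3 -0.20 to 0.11, SEC61B -0.38 to 0.05, EDEM1 -0.33 to 0.05, STT3B -0.01 to 0.39, CANX -0.08 to 0.34, SPCS1 -0.12 to 0.27, SPCS3 -0.20 to 0.17, SYVN1 -0.18 to 0.19, PDIA3 -0.16 to 0.25, SEC61A1 -0.17 to 0.20, P4HB -0.16 to 0.27, SSR3 -0.14 to 0.26, HSPA5 -0.24 to 0.14, ERN1 -0.03 to 0.26, ATF6 -0.12 to 0.17, HSP90B1 -0.37 to 0.08, CALR -0.31 to 0.11, DNAJB9 -0.07 to 0.31, HERPUD1 -0.17 to 0.25, XBP1 -0.36 to 0.06, PPP1R15A -0.13 to 0.16, HM13 -0.02 to 0.35, TXNDC5 -0.09 to 0.32. Over the 35 named genes SDF2L1, MZB1, DERL1, HYOU1, PDIA4, EDEM2, ATF4, TRIB3 and LIN28B stayed below 0 and DDIT3 and TXNDC11 above 0 under every alternative run. With 3 libraries a group, the median SE of a member's log2 fold change was 0.17 as deposited and 0.06 after cyclic loess.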
